A study of Homo sapiens with 8 samples.

Results

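NEAT1 and MALAT1 are long noncoding RNAs made from neighbouring genes on the plus strand of chromosome 11 and kept in the nucleus. They were followed here through every assembled transcript that the combined assembly names for either gene. This rule gave 5 transcripts of 2 genes, out of 96614 transcripts with reads and 20195 named genes in the whole data set. No transcript was listed under either gene without also being named for it. NEAT1 had 2 of these transcripts and MALAT1 had 3.

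The data were 8 long-read RNA libraries of the established human embryonic line H1, sequenced from polyadenylated RNA on a PacBio Sequel II. The libraries formed 4 groups of 2 repeats: undifferentiated pluripotent cells (hPSC), ectoderm, endoderm and mesoderm. hPSC were kept in mTeSR1 on Matrigel. Endoderm was made in RPMI with WNT3A, 100 ng/ml Activin A and serum. Mesoderm was made in DMEM/F12 with 100 ng/ml VEGF, 100 ng/ml BMP4, 10 ng/ml bFGF and serum, and 100 ng/ml Activin A was present for the opening 24 hours only. Ectoderm was made in DMEM/F12 and KOSR with 2 µM A83-01, 2 µM PNU-74654 and 2 µM Dorsomorphin. The protocol gives a collection after 5 days. All groups come from the same line, and the labels do not say whether the repeats were separate cultures, so p-values measure only the spread between these libraries.

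NEAT1 is the RNA scaffold of paraspeckles, nuclear bodies that hold RNA-binding proteins and edited RNAs. It is made in a short polyadenylated form and in a much longer form, and the long form is the one on which paraspeckles are built. MALAT1 is among the most abundant nuclear RNAs of many cell types and gathers at nuclear speckles, the stores of splicing factors. The 3′ ends of MALAT1 and of long NEAT1 are not made by ordinary polyadenylation: RNase P cuts before a tRNA-like structure, and the end left behind is protected by a triple helix with an A-rich stretch. The released tRNA-like piece of MALAT1 becomes a small cytoplasmic RNA called mascRNA.

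The transcript ends show where the assembled RNAs stop relative to those known ends, so their sequences are given first. All are on the plus strand of GRCh38, 5′ to 3′, and were read from GENCODE release 29 transcripts, except the start, which is from the RefSeq promoter table (GRCh38.p14). Capitals mark a run of A in the endoderm MALAT1 end. In the NEAT1 short form end, the MALAT1 internal end and the MALAT1 reference end they mark the polyadenylation signal AATAAA.
NEAT1 short form end, chr11:65426454-65426513: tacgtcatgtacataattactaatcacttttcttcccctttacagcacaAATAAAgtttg
NEAT1 long form end, chr11:65445481-65445540: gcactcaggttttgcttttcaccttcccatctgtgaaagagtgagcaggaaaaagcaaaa
MALAT1 internal end, chr11:65503619-65503698: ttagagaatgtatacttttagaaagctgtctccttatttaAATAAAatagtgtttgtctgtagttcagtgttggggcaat
MALAT1 endoderm end, chr11:65506051-65506180: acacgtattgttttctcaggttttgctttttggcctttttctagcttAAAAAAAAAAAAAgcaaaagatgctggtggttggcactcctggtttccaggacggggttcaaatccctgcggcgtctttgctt
MALAT1 reference end, chr11:65506410-65506469: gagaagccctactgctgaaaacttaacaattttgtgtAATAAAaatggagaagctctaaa

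Both NEAT1 transcripts of the combined assembly stopped at the same base, 65440864. The longer, hEDT_00016553, covers chr11:65422798-65440864 as 1 exon of 18067 nt. The shorter, hEDT_00013976, covers chr11:65428031-65440864 as 1 exon of 12834 nt and lies wholly inside the longer. Both carry the class code c, which means that they are contained in a reference transcript, here the long form ENST00000501122.2. The shared end lies 14351 bases beyond the last of 4 short-form ends in GENCODE, which fall between 65426405 and 65426513. It lies 4676 bases short of the end of the long form at 65445540. No assembled NEAT1 transcript therefore ended at the short form or at the long form. The short form thus has no counts of its own, and whether the NEAT1 counts include reads from it was not tested.

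The shared NEAT1 end is the last base of a run of 22 A. It is the longest of the 5 runs of at least 10 A in the long form. Bases inside such runs make up 0.312% of the long form. AATAAA, searched on the transcript's own strand, was not found in the 40 bases before this end, and 1.23% of all 40-base windows of the long form hold it. Whether reads began at this run or at a poly(A) tail was not tested.

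The ends of all contained transcripts give the setting. Both NEAT1 transcripts and the internally ended MALAT1 transcript, described next, were not left out of these counts. Of 490 single-exon transcripts of class c whose end falls in a GENCODE 29 transcript, 75 (15.3%) had a run of at least 10 A within 20 bases of the end, and 249 (50.8%) had AATAAA in the last 40 bases. Among the 133 that stop at least 1000 bases before the reference end, as NEAT1 does, 46 (34.6%) had such a run and 37 (27.8%) had AATAAA.

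MALAT1 was assembled with 3 ends. The transcript hEDT_00013977 covers chr11:65497708-65506469 as 1 exon of 8762 nt, has the class code =, a match to the reference transcript ENST00000534336.2, and stops at the reference end. AATAAA lies 17 bases before that end. The transcript hEDT_00016554 covers chr11:65497739-65503678 as 1 exon of 5940 nt, has the class code c, and lies wholly inside hEDT_00013977. It stops 2791 bases short of the reference end, with AATAAA 14 bases before its last base, as the MALAT1 internal end above shows. The third, hEDT_00016555, spans chr11:65501848-65503609 in 2 exons that total 1519 nt and matches ENST00000508832.2. In MALAT1, 3.21% of 40-base windows hold AATAAA.

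The 4 group assemblies, each built from the reads of a single group, differed in the ends they held, with 1 assembly per group and so no replicate check. NEAT1 was a single transcript over chr11:65422798-65440864 in the ectoderm and mesoderm assemblies, and over chr11:65428031-65440864 in the hPSC assembly. The endoderm assembly held no NEAT1 transcript. The main MALAT1 transcript covered chr11:65497739-65506469 in hPSC and chr11:65497708-65506469 in ectoderm. In mesoderm it covered chr11:65497739-65503678 and so stopped at the internal end. In endoderm it covered chr11:65499045-65506110.

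The endoderm MALAT1 end is the last base of a run of 13 A, chr11:65506098-65506110, which is the only run of at least 10 A in MALAT1. It stands 359 bases before the reference end. In the sequence given above, the annotated small RNA (RF01684, chr11:65506117-65506173, 57 bases) begins 7 bases after this end. The mature MALAT1 made by RNase P is known to stop before that small RNA, and the A-rich stretch is the part known to enter the triple helix. The assembled end is not the base just before the small RNA. Whether the endoderm reads came from RNA with that mature end, or from copying at the A run in library making, was not tested.

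**Figure D1:**
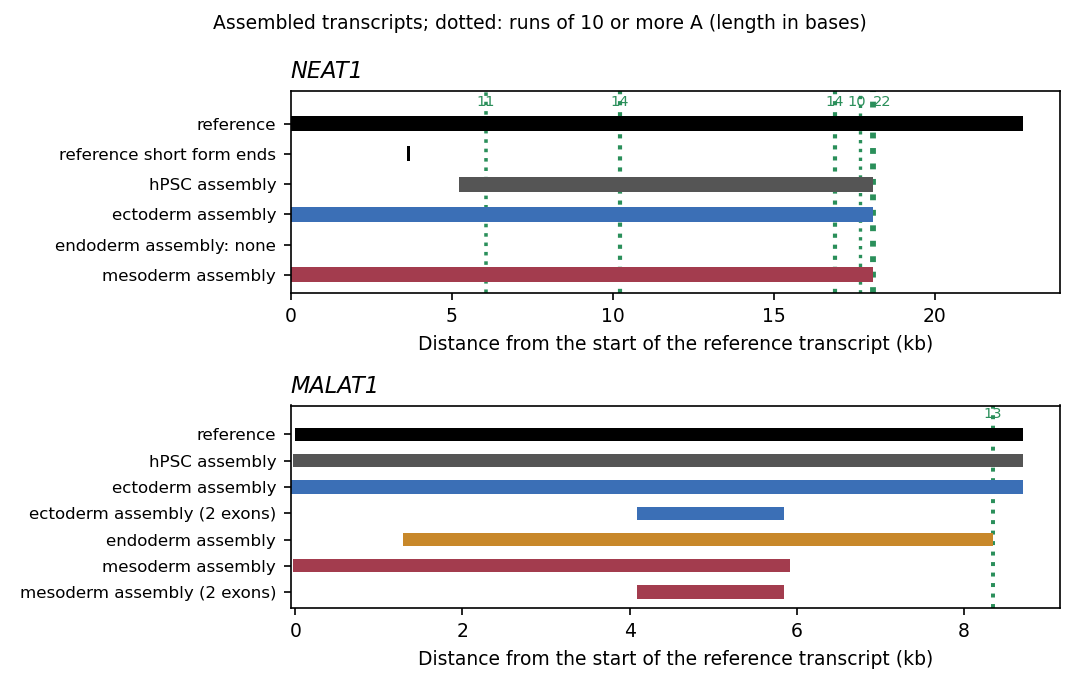
Assembled NEAT1 (upper panel) and MALAT1 (lower panel) transcripts of the 4 group assemblies as bars, by distance in kb from the start of the reference transcript, with the reference in black. Dotted lines mark runs of 10 or more A with their length in bases. The 3 NEAT1 bars stop at the run of 22 and the endoderm MALAT1 bar stops at the run of 13.

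RefSeq gives 2 starts for MALAT1, at 65497738 and 65499045. The single-exon MALAT1 transcript started at 65497739 or 65497708 in the hPSC, ectoderm and mesoderm assemblies, near the upstream start, and at 65499045, the downstream start, in the endoderm assembly. The 2-exon transcript of the ectoderm and mesoderm assemblies started at 65501848, at neither. The 120 bases around the downstream start are given here because TATAAA, the core of the TATA box, lies in them. Its first base is 30 bases before the start, and capitals mark TATAAA and the transcribed part.
MALAT1 start 2, chr11:65498965-65499084: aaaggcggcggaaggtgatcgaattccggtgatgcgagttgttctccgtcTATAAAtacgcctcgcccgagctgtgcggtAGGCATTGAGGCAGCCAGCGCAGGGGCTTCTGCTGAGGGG
Of 35116 RefSeq promoter windows, from 250 bases before to 50 after a start, 7.33% hold TATAAA on the gene's strand and 11.5% on either strand. The upstream MALAT1 window holds it on neither strand. With 1 assembly per group, the use of the downstream start in endoderm has no replicate check.

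MALAT1 was high in ectoderm and mesoderm and low in hPSC and endoderm. Its gene count, summed over the 3 transcripts, was 70 and 80 in hPSC, 74 and 77 in endoderm, 1074 and 1104 in mesoderm, and 3421 and 3425 in ectoderm. Scaled to the library total as CPM (counts per 1e6 reads), this was 139 ± 5.33 (SD, n = 2) in hPSC, 129 ± 3.52 in endoderm, 2107 ± 119 in mesoderm and 3219 ± 455 in ectoderm. Every ectoderm and mesoderm library stood above every hPSC and endoderm library. Among all genes with reads, MALAT1 ranked 9 and 4 by count in the ectoderm libraries and 27 and 24 in mesoderm. It ranked 1528 and 1297 in hPSC, and 1443 and 1391 in endoderm. The libraries were made from polyadenylated RNA, while the mature MALAT1 end and the long NEAT1 end are not made by ordinary polyadenylation. How far the counts of either gene follow the whole amount of its RNA was not tested.

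NEAT1 was also higher in mesoderm and ectoderm than in hPSC and endoderm, with far fewer reads. Its gene count was 5 and 2 in hPSC, 0 and 0 in endoderm, 30 and 21 in mesoderm, and 42 and 33 in ectoderm. This was 6.59 ± 4.29 CPM (SD, n = 2) in hPSC, 34.8 ± 1.02 CPM in ectoderm and 49.1 ± 10.5 CPM in mesoderm. All 4 ectoderm and mesoderm libraries stood above both hPSC libraries. A count of 0 allows up to 3 counts, which is 5.12 CPM in either endoderm library. A 0 in 1 endoderm library therefore does not exclude a level like that of hPSC repeat 2, 3.56 CPM. The mean level in ectoderm was thus 3219 CPM for MALAT1 and 34.8 CPM for NEAT1, and in mesoderm 2107 and 49.1 CPM. These long-read counts were not divided by transcript length.

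**Figure D2:**
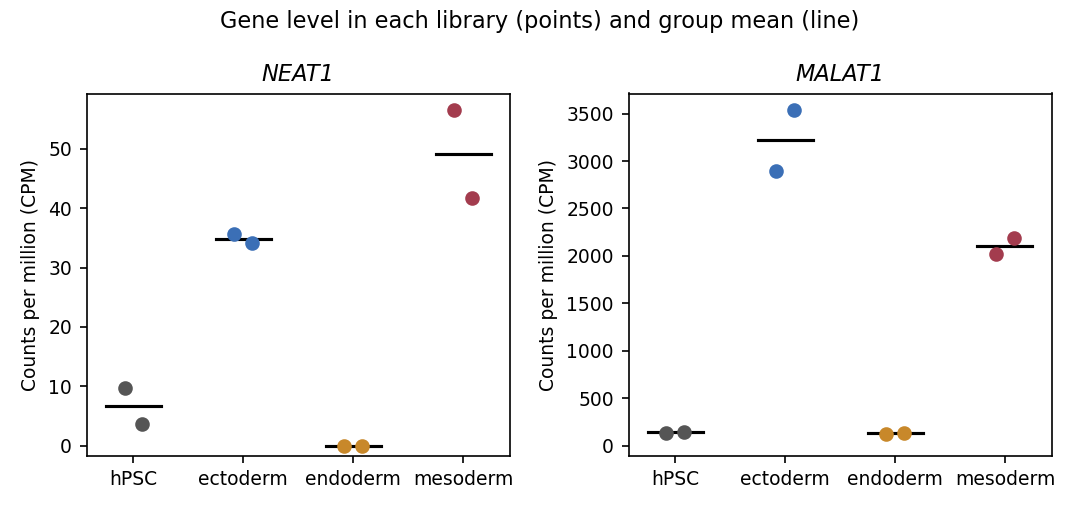
NEAT1 (left) and MALAT1 (right) in CPM in each of the 8 libraries (points), with the mean of each group as a line. The ectoderm and mesoderm points lie above the hPSC and endoderm points for both genes, and NEAT1 is at 0 in both endoderm libraries.

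Both genes were called higher in ectoderm and in mesoderm than in hPSC. Calls were common in these data: at an adjusted p below 0.05, edgeR's quasi-likelihood test with Benjamini-Hochberg adjustment called 48.6% of the 10847 tested genes in ectoderm (23.8% higher, 24.8% lower) and 35.2% in mesoderm (17% higher, 18.2% lower). The 3 layers were compared with the same hPSC libraries. MALAT1 was 23.0-fold higher in ectoderm by pooled CPM, a fitted log2 change of 4.10 ± 0.35 (SE, adjusted p = 5.62e-07), which 155 tested genes exceeded. In mesoderm MALAT1 was 15.2-fold higher, a log2 change of 3.68 ± 0.34 (adjusted p = 1.25e-06), which 337 tested genes exceeded. NEAT1 was 5.39-fold higher in ectoderm, a log2 change of 1.98 ± 0.51 (adjusted p = 0.00567). In mesoderm NEAT1 was 7.61-fold higher, a log2 change of 2.67 ± 0.51 (adjusted p = 0.00121). In bulk RNA, fewer cells that make an RNA and less of it per cell cannot be told apart.

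The NEAT1 call in ectoderm was lost in some of the other fits. With DESeq2 its log2 change was 2.07 with an adjusted p of 0.0541, and with a trend on transcript length removed from each library it was 0.69 with an adjusted p of 0.359. In mesoderm the NEAT1 call held in each of the alternatives run. Counts from the group assemblies were not among those alternatives. In them the NEAT1 ratio to hPSC was lower, at 2.09 in ectoderm and 3.08 in mesoderm, without a test. Without hPSC repeat 1 both calls held and the NEAT1 log2 change was 2.63 in ectoderm and 3.32 in mesoderm.

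Endoderm differed from the other layers. MALAT1 was not called against hPSC: the ratio of pooled CPM was 0.929, the fitted log2 change was 0.22 ± 0.33 (adjusted p = 0.665), and its 95% interval ran from -0.48 to 0.92, so the direction depends on the scaling. NEAT1 had no count in endoderm in the combined assembly. In hPSC repeat 2 the combined assembly gave NEAT1 2 counts, against 11 in the hPSC assembly. The endoderm assembly had no NEAT1 transcript to compare, so the 0 is one of counts on assembled transcripts. With endoderm set at a floor of 3 counts over the group, NEAT1 was 2.53-fold higher in hPSC. This ratio takes the hPSC count as exact, so it is not a lower bound on the difference in NEAT1. The ratio itself was not tested. edgeR's fitted NEAT1 log2 change in endoderm was -5.34 ± 1.75 (SE, adjusted p = 0.0348), a fitted value against 0 counts and not a bound. In endoderm 27.1% of genes were called, 13.4% higher and 13.7% lower. The NEAT1 call rests on 7 counts in hPSC. The adjusted p was 0.0859 with DESeq2, 0.126 without hPSC repeat 1, 0.144 without endoderm repeat 1 and 0.145 without endoderm repeat 2.

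Direct comparisons of the layers separated endoderm from both others. MALAT1 was 24.7-fold higher in ectoderm than in endoderm (log2 change 3.88 ± 0.34, adjusted p = 5.03e-07), a comparison in which 63.1% of genes were called. It was 16.3-fold higher in mesoderm than in endoderm (adjusted p = 2.13e-06), where 47.1% of genes were called. With endoderm set at the floor of 3 counts over the group, NEAT1 was 13.6-fold higher in ectoderm and 19.2-fold higher in mesoderm. These ratios take the ectoderm and mesoderm counts as exact and are not lower bounds. The edgeR adjusted p of NEAT1 was 0.000101 between ectoderm and endoderm and 5.96e-05 between mesoderm and endoderm. Ectoderm and mesoderm were not separated. There the log2 difference, ectoderm minus mesoderm, was 0.42 ± 0.30 for MALAT1 (adjusted p = 0.292, 95% interval -0.21 to 1.05) and -0.68 ± 0.34 for NEAT1 (adjusted p = 0.134, 95% interval -1.42 to 0.05), and 35.5% of genes were called. By pooled CPM, MALAT1 ran from ectoderm through mesoderm and hPSC to endoderm, and NEAT1 from mesoderm through ectoderm and hPSC to endoderm. The neighbours ectoderm and mesoderm were not separated for either gene, nor were hPSC and endoderm for MALAT1.

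The length of the transcripts behind the reads moved with these groups. The transcript behind a read averaged 3073 and 2975 nt in the endoderm libraries, 3298 and 3114 nt in hPSC, 3765 and 3840 nt in mesoderm, and 4406 and 4650 nt in ectoderm. The 2358 tested genes with a mean transcript length of at least 6000 nt had a median log2 change of 1.07 in ectoderm, against -0.01 over all tested genes. In mesoderm that median was 0.50, against 0.01 over all, and in endoderm -0.25, against -0.13. Of the long genes, 47.2% were called higher in ectoderm and 23.7% in mesoderm. MALAT1 was exceeded by 81 of them in ectoderm and 102 in mesoderm, and NEAT1 by 622 and 200.

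Removing the length trend left the MALAT1 calls in place. Its log2 change was then 3.16 in ectoderm (adjusted p = 3.11e-06) and 3.22 in mesoderm (adjusted p = 1.94e-06). For NEAT1, the same fit put ectoderm below mesoderm, with a log2 difference of -1.47 and an adjusted p of 0.00497. The groups differ as wholes in this mean transcript length, so length and differentiation cannot be told apart by these libraries.

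**Figure D3:**
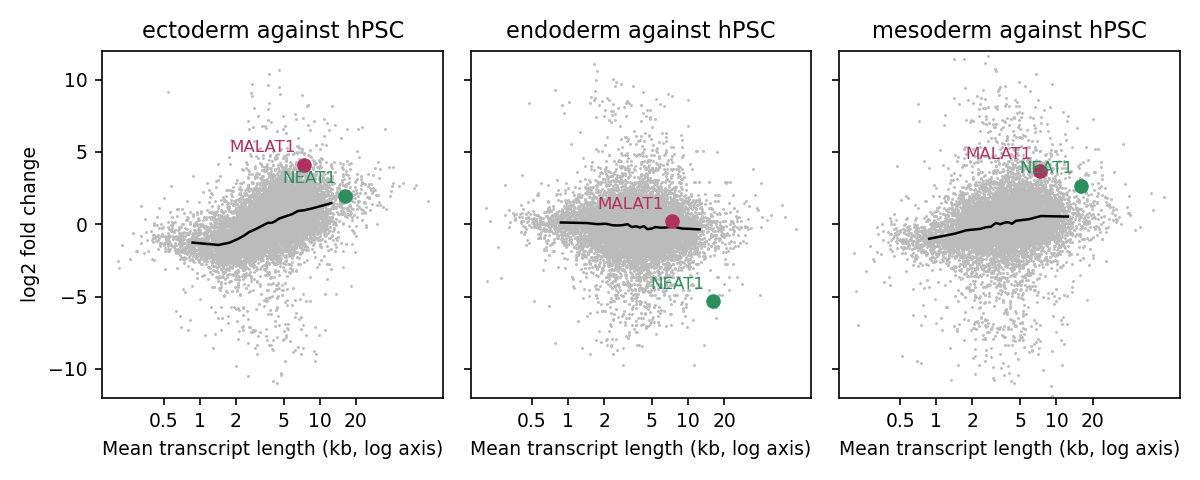
Log2 fold change against hPSC of each of the 10847 tested genes (grey points) by mean transcript length in kb (log axis) in ectoderm, endoderm and mesoderm, with the median in 20 bins of equal gene number as a line and MALAT1 and NEAT1 in colour. The line climbs with length in ectoderm and mesoderm, and MALAT1 lies well above it there. The NEAT1 value in endoderm is a fitted value against 0 counts and not a bound.

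The nested MALAT1 transcripts carried near-equal counts in every library. The full-length hEDT_00013977 had 34 and 41 counts in hPSC, 36 and 33 in endoderm, 544 and 562 in mesoderm, and 1709 and 1743 in ectoderm. The internally ended hEDT_00016554 had 36 and 39 in hPSC, 36 and 44 in endoderm, 529 and 541 in mesoderm, and 1712 and 1682 in ectoderm. The share of MALAT1 counts on the full-length transcript ranged from 42.9% in endoderm repeat 2 to 51.3% in hPSC repeat 2. The 95% Wilson interval of each of the 8 libraries includes 50%. In ectoderm repeat 1, with 3421 counts, it ran from 48.3% to 51.6%. These intervals cover counting error only.

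That share of counts did not differ detectably between groups. How reads that fit both transcripts were counted is not given, so the tests below cannot compare use of the 2 ends. The exact permutation test over partitions of the libraries gave p = 0.276 (two-sided by construction of F, adjusted p = 0.429 over 2 shares), where the smallest p it can give is 0.00952. edgeR's test of transcript choice within genes, over 2629 genes, gave MALAT1 an adjusted p of 0.988 in ectoderm, 0.888 in endoderm and 0.975 in mesoderm. Over all libraries the shorter MALAT1 transcript had 4619 counts and the longer 4702, or 49.6% in the shorter (95% Wilson interval 48.5% to 50.6%).

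The group assemblies put nearly the same totals on a single main transcript. In the own assembly of a group, MALAT1 had 70 and 82 counts in hPSC, 74 and 77 in endoderm, 1074 and 1103 in mesoderm, and 3421 and 3427 in ectoderm, close to the totals of the combined table. The mesoderm assembly had no full-length MALAT1, and the ectoderm and hPSC assemblies had no internally ended single-exon one, yet all 3 groups had both in the combined table. Over the whole data set, 62 pairs of nested single-exon transcripts had at least 100 counts, with a median of 36.6% in the shorter (quartiles 10.3% and 47.4%), and in 21 of them the 95% interval included 50%. How the counting treats a read that fits both transcripts of a pair is not given in the sources used here, so the 2 rows cannot be read as separate measurements of the 2 ends.

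**Figure D4:**
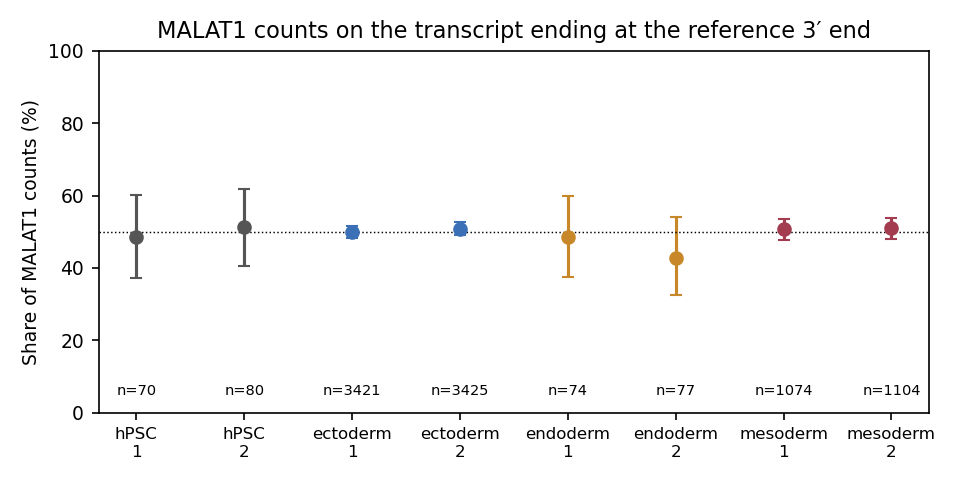
Share of MALAT1 counts on the transcript that ends at the reference 3′ end, in percent, in each library, with 95% Wilson intervals and the number of MALAT1 counts (n). Every interval includes 50% (dotted line), and the widest belong to the hPSC and endoderm libraries with 70 to 80 counts.

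Transcripts were also tested singly. Of the 5 transcripts, 3 had enough counts to be tested among 12440 transcripts: both single-exon MALAT1 transcripts and the longer NEAT1 transcript. The 2 MALAT1 transcripts are the nested pair, so they are not separate measurements. All 3 tested transcripts were called higher in ectoderm, where 45.9% of transcripts were called in either direction. They were also called higher in mesoderm, where 32.8% were called in either direction. None was called in endoderm, where 26.8% were called. There edgeR's unadjusted p was below 0.05 for 1 of the 3, the NEAT1 transcript (unadjusted p = 0.0335, adjusted p = 0.0967). The NEAT1 transcript hEDT_00016553 had 3 and 1 counts in hPSC, 0 and 0 in endoderm, 18 and 16 in mesoderm, and 24 and 21 in ectoderm. The contained hEDT_00013976 had 2 and 1 in hPSC, 0 and 0 in endoderm, 12 and 5 in mesoderm, and 18 and 12 in ectoderm, and was too low to be tested.

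Spliced MALAT1 was near 0 everywhere. The 2-exon hEDT_00016555 had 2 counts in endoderm repeat 1, 1 in each mesoderm library and 0 in the other 5 libraries. Single-exon transcripts held from 97.3% to 100% of the MALAT1 counts of a library, and this share did not differ detectably between groups (exact permutation p = 0.429). Both NEAT1 transcripts had 1 exon. A transcript antisense to MALAT1 is known, and the use of strand in counting is not given in the sources used here, so reads from it could not be told apart.

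In the hPSC assembly NEAT1 had more reads than in the combined table. The hPSC assembly gave it 7 and 11 counts, against 5 and 2 in the combined table. In ectoderm the counts were 42 and 33 in both tables, in mesoderm 32 and 21 against 30 and 21, and in endoderm there was no NEAT1 transcript to count. From the own assemblies, which are separate tables, the ratio of pooled NEAT1 CPM to hPSC was 2.09 in ectoderm and 3.08 in mesoderm, without a test, against 5.39 and 7.61 in the combined table.

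The cells carried the markers of their labels in 3 of the 4 groups. Summed over POU5F1, NANOG, TDGF1 and SOX2, the pluripotency markers stood at 2014 and 1978 CPM in hPSC and 161 and 151 CPM in ectoderm. SOX2 did not follow the sum, with 71 and 5 counts in hPSC and 180 and 129 in the deeper ectoderm libraries. Endoderm had 1033 and 827 CPM of the 4 pluripotency markers, mostly TDGF1 at 452 and 351 counts. There SOX2 was at 0 in both libraries and POU5F1 at 61 and 69 counts, against 372 and 352 in hPSC. Endoderm also had 2198 and 2295 CPM of the endoderm markers SOX17, CER1, GATA4, GATA6 and EOMES. Ectoderm had 609 and 468 CPM of PAX6, LHX5, SIX3 and OTX2, and endoderm had 422 and 416 CPM of these 4, nearly all OTX2 at 241 and 238 counts. The mesoderm libraries had 0 or 1 counts of TBXT, MIXL1 and FOXF1, while HAND1, TBX3 and BMP4 were high. They also carried all 6 amnion and trophoblast markers examined, at 5148 and 5607 CPM summed, against 4.14 to 80.3 CPM in the other libraries, with GABRP alone at 2269 and 2355 counts. The part of those cells in the mesoderm levels of NEAT1 and MALAT1 was not tested.

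Genes of paraspeckle proteins were called in both directions. Of 28 listed, 27 were tested. In ectoderm 5 were called higher and 5 lower, in endoderm 1 higher and 8 lower, and in mesoderm 2 higher and 3 lower. Of all tested genes 48.6%, 27.1% and 35.2% were called in ectoderm, endoderm and mesoderm. The list's median log2 change was -0.15, -0.20 and -0.10 in ectoderm, endoderm and mesoderm, against -0.01, -0.13 and 0.01 over all tested genes. Counts of called members depended on single libraries. In ectoderm the 10 called became 17 without hPSC repeat 1 and 6 without either ectoderm repeat. In endoderm the 9 became 4 without endoderm repeat 1 and 1 without endoderm repeat 2. In mesoderm the 5 became 14 without hPSC repeat 1 and 2 without either mesoderm repeat.

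The 3 core paraspeckle proteins of the DBHS family differed from each other. SFPQ, needed for paraspeckles to form, had 127 and 35.6 CPM in hPSC, 10.2 and 18.8 in endoderm, 126 and 177 in mesoderm, and 150 and 138 in ectoderm. It was called lower in endoderm, with a log2 change of -2.07 ± 0.52 (adjusted p = 0.0081). PSPC1 had 96.3 and 8.90 CPM in hPSC and 10.2 and 8.53 in endoderm, and was called lower there with a log2 change of -2.04 (adjusted p = 0.0468). The hPSC repeats differ widely for both genes, and hPSC repeat 2 overlaps endoderm for PSPC1. NONO, the most abundant of the 3, lay between 804 and 1171 CPM in all 8 libraries and was called in no layer.

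Of the other paraspeckle proteins, RBM14, a prion-like protein of the paraspeckle, stood at 349 CPM in both hPSC libraries and fell in ectoderm (log2 change -1.70) and mesoderm (-1.49). HNRNPR, an RNA-binding protein, had 164 and 103 CPM in hPSC and 572 and 544 in ectoderm. It rose in ectoderm (log2 change 1.66) and mesoderm (0.81) and fell in endoderm (-1.57). RBM3, a cold-inducible RNA-binding protein, had a log2 change of -2.09 in ectoderm and 1.82 in endoderm. HNRNPK, which favours long NEAT1 by blocking the short form's polyadenylation, was called lower in mesoderm (log2 change -1.15, adjusted p = 0.0137). Its values in the other layers were -0.78 (adjusted p = 0.0577) in ectoderm and -0.37 (adjusted p = 0.436) in endoderm, and the difference between layers was not tested.

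Among genes of nuclear speckle proteins, all 26 listed were tested. In ectoderm 9 were called higher and 7 lower, in endoderm 2 higher and 8 lower, and in mesoderm 4 higher and 6 lower, beside 48.6%, 27.1% and 35.2% of all tested genes called. The medians were 0.01, -0.49 and -0.21, against -0.01, -0.13 and 0.01 over all genes. Without endoderm repeat 1 or repeat 2 the 10 called in endoderm became 3, and without mesoderm repeat 1 or repeat 2 the 10 in mesoderm became 5 or 6. BCLAF1, a splicing and transcription factor, had 23.1 and 32.0 CPM in hPSC, 6.83 and 8.53 in endoderm, 79.1 and 69.5 in mesoderm, and 268 and 285 in ectoderm. It rose in ectoderm by a log2 change of 2.88 and in mesoderm by 1.17, and its change in endoderm was -1.51. SRSF11, a splicing regulator, rose in ectoderm by a log2 change of 2.25 and was also called higher in mesoderm. DDX39B, an RNA helicase of splicing and export, had a log2 change of -2.01 in ectoderm and 0.97 in endoderm.

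The speckle scaffolds SON and SRRM2 differed from each other. SON had 204 and 155 CPM in hPSC and 49.5 and 32.4 in endoderm, a log2 change of -1.78 (adjusted p = 0.0013). SRRM2 had 225 and 169 CPM in hPSC and 43.3 and 37.7 in mesoderm, a log2 change of -2.50 (adjusted p = 0.0011), and 52.5 and 186 CPM in the ectoderm repeats. SRSF1, a splicing factor known to bind MALAT1, was called in no layer, with log2 changes from -0.14 to 0.25.

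The third list holds genes of proteins that shape the 3′ ends of these RNAs. Of 16 listed, 14 were tested. In ectoderm 3 were called higher and 2 lower, in endoderm 0, and in mesoderm 1 lower, where 48.6%, 27.1% and 35.2% of all tested genes were called. The medians were -0.34, 0.04 and -0.34, against -0.01, -0.13 and 0.01 over all genes. The 5 called in ectoderm became 3 without ectoderm repeat 1 and 0 without ectoderm repeat 2, the 0 in endoderm became 4 without hPSC repeat 2, and the 1 in mesoderm became 3 without hPSC repeat 1 and 0 without mesoderm repeat 1. POP7, a subunit of RNase P, had 40.4 and 42.7 CPM in hPSC, 18.6 and 11.4 in ectoderm, and 28.2 and 13.9 in mesoderm, with log2 changes of -1.86 (adjusted p = 0.0019) and -1.20 (adjusted p = 0.0445). POP4, another subunit, had a log2 change of -1.43 in ectoderm. POP1, the largest subunit, had a log2 change of 1.88 there, from only 2 and 3 counts in hPSC to 24 and 26 in ectoderm. NUDT21, a cleavage factor that favours the short NEAT1 form, was called higher in ectoderm (log2 change 0.78, adjusted p = 0.0469). Its partner CPSF6 and ELAC2, the enzyme that trims the mascRNA end, were called in no layer.

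**Figure D5:**
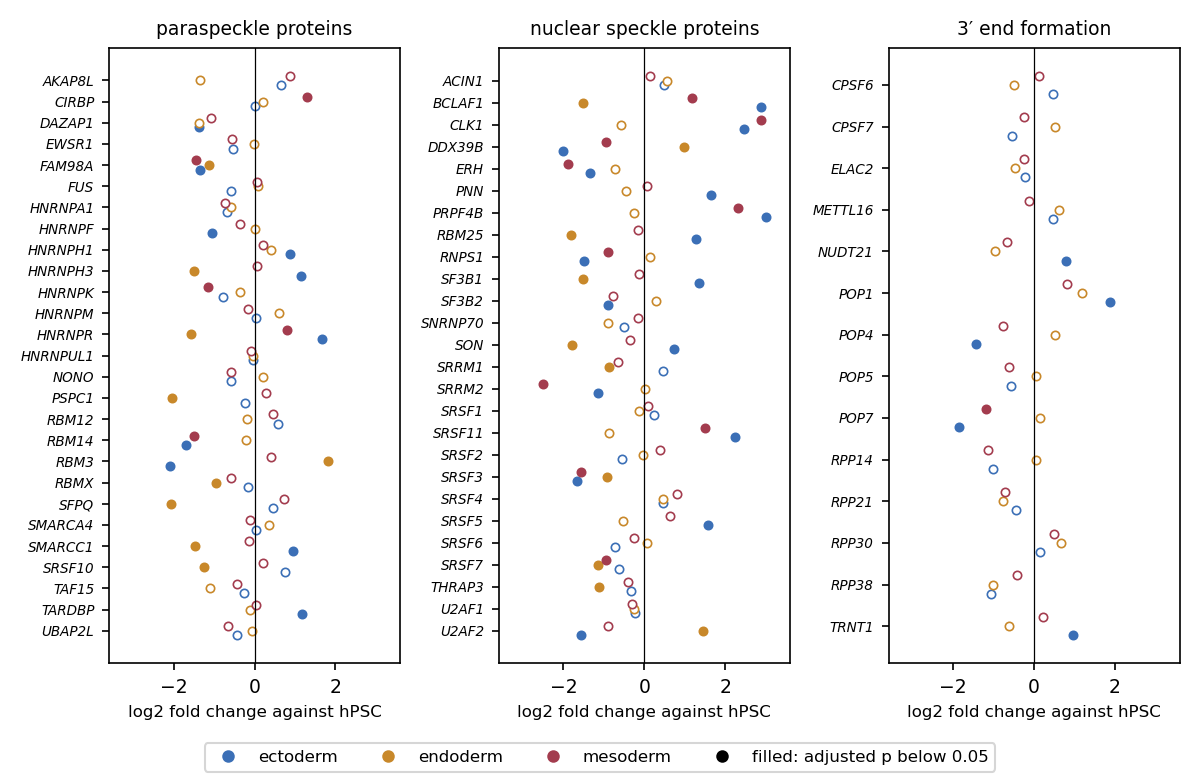
Log2 fold change against hPSC of each tested gene of the 3 protein lists, in ectoderm, endoderm and mesoderm, with filled points at an adjusted p below 0.05 (edgeR). Points fall on both sides of 0 in each list, and SFPQ, PSPC1 and SON show filled endoderm points to the left.

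Genes beside NEAT1 and MALAT1 were called in both directions over the 3 layers. Of 28 named genes with a transcript start within 250 kb, 14 were tested. In ectoderm 0 were called higher and 6 lower, in endoderm 4 higher and 2 lower, and in mesoderm 1 higher and 3 lower. Among all tested genes, endoderm had 13.4% called higher and 13.7% lower, mesoderm 17% and 18.2%, and ectoderm 23.8% and 24.8%. The neighbours' medians were -0.85, 0.28 and -0.44, against -0.01, -0.13 and 0.01 over all genes. CAPN1, a calcium-dependent protease, had 445 and 536 CPM in hPSC, 137 and 147 in ectoderm, and 1057 and 1252 in endoderm. It had log2 changes of -2.23 in ectoderm and 1.55 in endoderm. FRMD8 was called higher in endoderm (2.10) and mesoderm (1.25), and RELA, the NF-κB subunit, in endoderm (1.01). CDC42EP2, KAT5, SLC22A20P and ZNRD2 were among the genes called lower in ectoderm. The lower calls in the other layers were SIPA1 and SLC22A20P in endoderm and CDC42EP2, DPF2 and SLC22A20P in mesoderm. MAP3K11, PCNX3, POLA2 and RNASEH2C were called in no layer.

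Among the 5 genes whose log2 CPM followed NEAT1 most closely over the 8 libraries were ADGRG1 (Pearson's r = 0.995), NID2 (0.989), MOB3B (0.988) and FOXO3 (0.986). For MALAT1 the 5 closest were IGFBP5 (0.995), GOLGA4 (0.995), PRTG (0.993), FYTTD1 (0.992) and LRP2 (0.990). NEAT1 and MALAT1 had an r of 0.865 with each other. The 8 libraries form 4 groups and are alike in depth and transcript length within a group, and these are the highest values among all tested genes with a symbol, so they are a description only. FOXO3, a stress-responsive transcription factor, had 28.9 and 12.4 CPM in hPSC, 1.71 in both endoderm libraries, 183 and 179 in mesoderm, and 74.5 and 68.2 in ectoderm. PRTG, a cell-surface protein of early embryonic tissue, had 1.93 and 0 CPM in hPSC, 1.71 in both endoderm libraries, 217 and 234 in mesoderm, and 416 and 434 in ectoderm.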

How the data were processed

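The deposited tables give raw read counts of transcripts, in 1 assembly shared by all groups and in a separate assembly of each group. The endoderm columns the authors deposited stand under the unit expected counts here only because of their name, and nothing was rounded. They too are whole raw read counts, the same quantity as the columns of the other groups. The submitters' processing notes name minimap2, StringTie and GRCh38. The counter and its use of strand are not given in the sources used here. Library totals were 503840 to 1180888 reads, so 3 counts are 2.54 to 5.95 CPM.

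Counts of named transcripts were summed per gene and tested with edgeR 4.0.16 in R 4.3.3 (TMM, filterByExpr at a minimum count of 10, 1 quasi-likelihood fit over all 8 libraries, two-sided, Benjamini-Hochberg at 0.05). SE is the log2 change divided by the square root of F. DESeq2 1.42.0 was an alternative, with others on normalization, filter, repeat number, transcript length, rows summed and libraries left out. Transcript choice used diffSpliceDGE, and shares an exact permutation test. On simulated counts, with 200 genes changed 4-fold, 74% were recovered for ectoderm (9409 genes tested), 70.5% for endoderm (9483) and 71.5% for mesoderm (9472), and 3.27%, 6% and 9.49% of the calls were false.

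Besides NEAT1, MALAT1 and all tested neighbours, genes were named by rule: in each protein list the 3 smallest adjusted p and 10 preset names, and the 5 most similar genes. Members and lists were chosen with earlier results of these data known. A few named items are not reported here. The short-read libraries that the labels mention were not analysed here.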

Additional observations from a re-analysis of the deposited data

Results flagged for a closer look

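The change against hPSC differed between layers for both genes, by the test of the difference itself (edgeR, adjusted p). For MALAT1 it was 5.03e-07 between ectoderm and endoderm, with a log2 difference of 3.88, and 2.13e-06 between endoderm and mesoderm, with a log2 difference of -3.46. For NEAT1 it was 0.000101 between ectoderm and endoderm and 5.96e-05 between endoderm and mesoderm, with no NEAT1 count in either endoderm library.

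A row of the combined table outside both genes held reads just downstream of MALAT1. It is a single-exon transcript over chr11:65506118-65508556, listed under ENSG00000274072, the gene of the small RNA, and it overlaps the last bases of MALAT1. It had 9 counts in endoderm (6 and 3), against 2 in hPSC, 5 in ectoderm and 3 in mesoderm. Pooled over repeats this was 7.68 CPM in endoderm, 1.85 in hPSC, 2.33 in ectoderm and 2.90 in mesoderm. The row was too low to be tested, and the difference was not tested.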

How the results depend on the processing

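The MALAT1 calls, and the lack of one in endoderm against hPSC and between ectoderm and mesoderm, held under each alternative run. Same-numbered repeats shared little of their deviation (correlations -0.034 to 0.151), which cannot show whether they were made together. With the replicate block, MALAT1 was 4.10 in ectoderm and 3.69 in mesoderm and NEAT1 2.00 and 2.68, and protein-list counts moved by at most 2 (3′ end 5 to 4 in ectoderm and 1 to 0 in mesoderm, speckle 16 to 15, 10 to 9 and 10 to 8, paraspeckle 5 to 4 in mesoderm).

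NEAT1 in ectoderm lost its call with DESeq2 (2.07), the length trend removed (0.69), and the block with it (0.71). In endoderm it lost it with DESeq2 (-3.97) and the length trend removed (-6.14). Between ectoderm and mesoderm it gained a call with the length trend removed (-1.47) and with the block as well (-1.47). The cause was not tested. DESeq2 called 1 gene of the 3′ end list in ectoderm and 0 in mesoderm, 6 speckle genes in endoderm, and 3 and 2 neighbours in endoderm and mesoderm. With the length trend removed, the 3′ end list had 3 in ectoderm and 0 in mesoderm. Within 500 kb, 18, 17 and 13 of 34 tested neighbours were called (48.6%, 27.1% and 35.2% of all genes). Leaving out 1 library at a time gave NEAT1 in endoderm -5.78 to -4.73. The lists, in ectoderm, endoderm and mesoderm, then had 0 to 6, 0 to 4 and 0 to 3 called (3′ end), 12 to 20, 3 to 12 and 5 to 15 (speckle), and 6 to 17, 1 to 11 and 2 to 14 (paraspeckle). No NEAT1 transcript matches a reference row, so the reference-only sum gave no NEAT1 value, and both planned NEAT1 shares could not vary, as its transcripts share 1 end and have 1 exon. Depth limits NEAT1 in hPSC and endoderm, at 0 to 5 counts a library. Over all genes edgeR called 5275, 2943 and 3815 in ectoderm, endoderm and mesoderm and DESeq2 3356, 1836 and 2315. With 1 library left out, edgeR called 3290 to 5938, 1450 to 4072 and 2006 to 5087.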
